A study of Anas platyrhynchos with 2 samples.

Results

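The genes described here are the 200 of largest genomic span among autosomal genes in a count table of Anas platyrhynchos, the duck. Genes are as annotated for the breed Fujian Longyan Shan-ma. ID numbers skip in places, so annotated genes, wide ones among them, may be missing from the table. Span was taken as the distance from the first base of the first exon to the last base of the last exon. It was compared on the 23 autosomes whose last gene in the table ends at 10 Mb or beyond. These autosomes carry 8941 of the 11383 genes in the count table, and the members were the 200 of largest span, or 2.24% of the 8941. The choice used the annotation alone and no read count. RNA of 2 libraries, each pooled over several organs, was sequenced to accompany an assembly of this breed's genome. Library A was labelled with stomach, liver, intestine, pancreas and blood, and library B with heart, lung, brain, muscle, skin, ovary, spleen, kidney and eye. The series text speaks of an adult female and an adult male, of a testis in place of the ovary in the male, and of RNA mixed in equal amounts over all tissues. The labels name no sex and no testis, so the groups are named as libraries and not as organs or sexes. There is 1 library per label and no replicate, so no p-value or SD is given, and the intervals printed cover counting error only.

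The RNA polymerase crosses all of a gene's span, introns included. Introns are then removed from the transcript, in large part while it is made, which leaves a short mature messenger RNA. In vertebrates the genes of largest span often encode adhesion proteins, ion channels, receptors and cytoskeletal proteins, many of them used in the nervous system and in muscle. Birds have small genomes with a few large chromosomes and many small ones, and intron size differs between these classes. The files give the study's own gene IDs, and 0 of the 11383 IDs matched the 26024 genes of the duck reference table. No member therefore carries a gene name or a known function here, and members appear by ID or by position on the study's own assembly. Sequences of the members were not used here.

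The widest member covered 1148 kb. It is Apl_2G0008360 on chromosome 2 (plus strand) from 103711806 to 104859367, with 24 exons and 13.4 kb of exon. Its longest intron, the first, measured 339 kb. The second, Apl_1G0014380 on the minus strand of chromosome 1 at 119296395 to 120353147, covered 1057 kb and was split into 78 exons, and its longest intron was number 44, at 167 kb. The third covered 1033 kb on chromosome 1 at 199715516 to 200748521, with 28 exons and a longest intron of 331 kb. No other member exceeded 1 Mb, and 30 members exceeded 500 kb. The next 3 were a gene of 772 kb with 12 exons on chromosome 3 at 51281828 to 52053680, one of 761 kb with 19 exons on chromosome 20 at 9448989 to 10209630, and one of 756 kb with 25 exons on chromosome 1 at 11873127 to 12629146. The last genes inside the rule were of 256.5 kb and 255.8 kb, and the first outside it were of 255.2 kb and 253.3 kb. The level, in RPKM (reads per kilobase of exon, scaled to the effective library size) and averaged over both libraries, was 3.59 and 4.86 for the former pair and 1.60 and 1.27 for the latter.

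**Figure D1:**
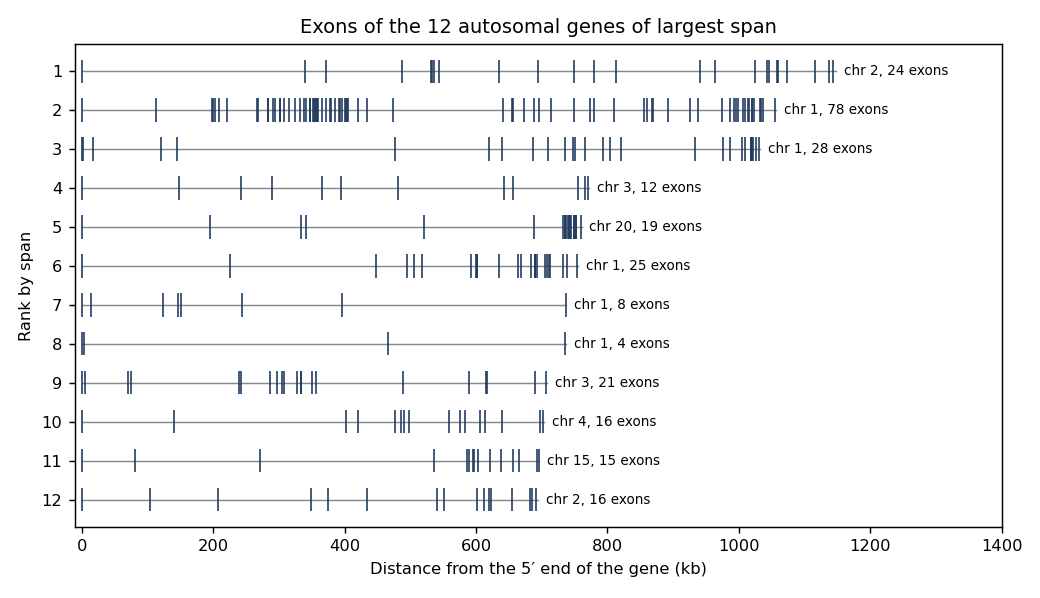
Exon positions of the 12 members of largest span, as vertical marks at the centre of each exon against the distance from the gene's 5′ end in kb, ranked from the widest. The marks are not drawn to exon width. The widest gene ends at 1148 kb and begins with an intron of 339 kb, and the gene of rank 2 has 78 exons.

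Introns made up nearly all of each member, as follows from the choice by span. The median member spanned 346 kb (quartiles 291 to 440 kb) and held 6.83 kb of exon, which was 1.95% of its span. The other 8741 genes of these autosomes had a median span of 18.6 kb, with 3.40 kb of exon, which was 18.8% of span in the median gene. Members had a median of 18.5 exons against 9 in the others, while the mean exon was of like size, 328 bp against 327 bp. The last exon, which as a rule holds most of the 3′ untranslated region, was 2940 bp in the median member and 1619 bp in the median other gene. As a share of exon length it was 47.0% and 52.3%.

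The members' introns were as a rule longer than those of other genes and, as in genes of like exon length and exon number, longest near the 5′ end. Together they had 4475 introns, with a median of 4.4 kb, against 0.945 kb for the 95694 introns of the other genes. Of the members' introns, 162 (3.62%) exceeded 100 kb, while 64 of the other genes' introns (0.0669%) did. Over 10 kb were 32.7% of the members' introns and 5.60% of the others. Members had short introns too, with 15.5% under 1 kb, against 52.0% in the other genes. By position from the 5′ end, the median was 53.3 kb for the first intron, 39.1 kb for the second, 25.9 kb for the third, 11.6 kb for the fourth and 5.06 kb for the last. Each member was set against its peers, which are other genes with exon length and exon number each within 10% of its own, where at least 5 were found. Longer introns in sum than in such peers follow from the choice by span, so the values below describe only where the length lies. The first intron was longer than the median of these peers in 155 of 188 members, and the second in 175 of 187. The median member was 8.15 times its peers at the first intron, 16.4 times at the second, 14.2 times at the third and 5.44 times at the last. In the same order the median of the peers' medians was 4.95, 2.41, 1.64 and 1.02 kb, so introns shortened from the 5′ end in peers too.

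The longest intron was the first in 67 of the members with at least 3 exons (33.7%), which are all but 1. Over the 187 of these that have peers it was first in 32.6%, and in a mean of 41.2% of their own peers, with exon numbers alike. It took 29.3% of the span in the median member and 27.7% in the median other gene, so the share of span in 1 intron was close between the groups although the spans were far apart. In 26 members a single intron covered over 50% of the span. Among genes with at least 3 exons this held for 12.6% of members and 14.4% of the other genes. It held for 10.9% of the genes that are a peer of any member, so it was not particular to members. These shares were not taken at like exon number. The extreme case among members was a gene of only 2 exons on the minus strand of chromosome 1 at 153272662 to 153568397. Its single intron of 289 kb was 97.8% of the span. The longest intron of any member, 475.5 kb, was in Apl_1G0017220, which has 3 exons and lies on chromosome 1 at 147679104 to 148175245. The next were an intron of 461 kb in Apl_1G0018020, a gene of 4 exons on chromosome 1 at 168134367 to 168871142, and one of 381 kb in a gene of 9 exons on chromosome 12 at 6155394 to 6664432. At the other end, the member with the most exons had 146 and 28.6 kb of exon, on chromosome 3 at 56268017 to 56576370, and its median intron was 1.19 kb.

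Every member had reads in both libraries. The library totals were 20047449 counted reads for A and 41792653 for B, and the median member had 652.5 and 1360 of them. The lowest had 7 and 41 reads, and 193 members had at least 100 reads in both. Few members had little data: 3.5% had fewer than 100 reads in library A, against 10.9% of the other genes, which have less exon. The 10th percentile of reads in library A was 173.5 in members and 91 in the other genes. In the genes that are a peer of any member it was 161. These genes had less exon than members, with medians of 4.34 kb and 13 exons against 6.83 kb and 18.5. Their median in library A was 900 reads, above the 652.5 of members. All 200 members passed the minimum of 10 reads in at least 1 library used for the ratios below. In CPM, which carries the same library scaling as RPKM but is not divided by exon length, libraries A and B gave 32.7 and 32.4 for the median member, 38.4 and 38.5 for the median other gene. Of the reads of library A, members held 0.896% (exact 95% binomial interval 0.892 to 0.900), and of those of library B 0.892% (0.889 to 0.895). Counted over the genes of these autosomes alone, they held 1.07% of reads in either library, with 20.6% of the summed span and 4.13% of the summed exon length.

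Per kilobase of exon, members were low on the whole. The median member had 4.49 RPKM in library A and 4.50 RPKM in B, and the median other gene 9.76 and 9.79 RPKM. Over both libraries the quartiles were 2.24 and 8.07 RPKM in members and 3.92 and 22.9 in the other genes. In pooled tissue, fewer expressing cells and less RNA per cell cannot be told apart. Of the 200 members, 38 (19%) lay above the median of all 8941 genes.

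Few members were under 1 RPKM or reached 20 RPKM. Only 5 (2.5%) were under 1 RPKM, against 6.02% of the other genes, and 6 (3.0%) reached 20 RPKM, against 28.5%. None reached 100 RPKM, which 502 other genes (5.74%) did. Between these ends, 108 members had 1 to 5 RPKM, 55 had 5 to 10 RPKM and 26 had 10 to 20 RPKM.

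**Figure D2:**
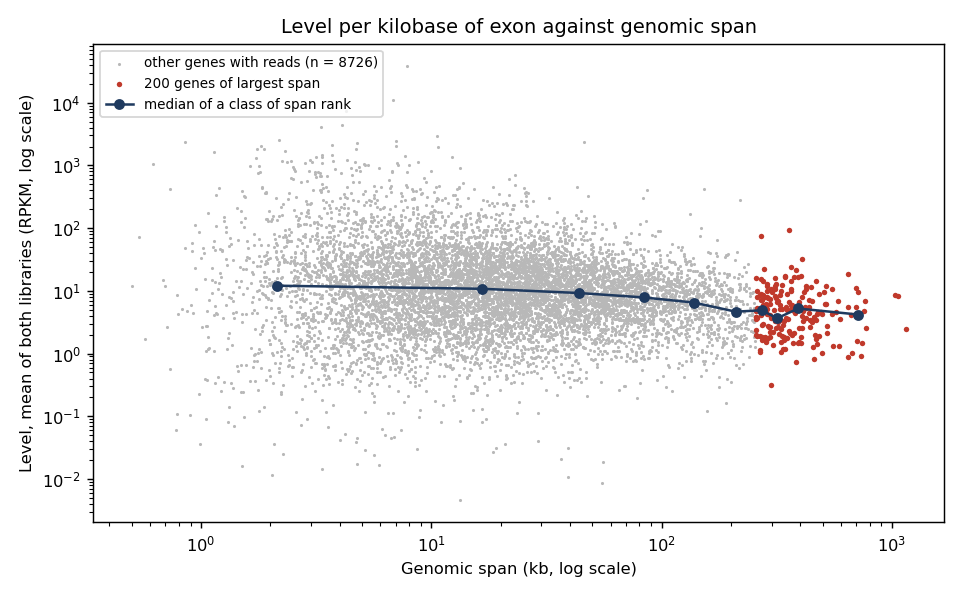
Level as the mean RPKM of both libraries against genomic span in kb, both on log scales, with 1 point per gene that has reads. The 200 members are in red, other genes of the same autosomes in grey, and the line joins the medians of classes of span rank, from 12.1 RPKM in the class of smallest span to 4.2 RPKM in ranks 1 to 50.

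The highest 2 members stood well apart from the rest. Apl_1G0003680, on chromosome 1 (plus strand) from 41283055 to 41638681, had 8615 and 17490 reads in the libraries, or 94.5 RPKM in A and 91.3 RPKM in B. It spans 356 kb with 11 exons and 4566 bp of exon. Next was Apl_6G0002560, on the minus strand of chromosome 6 at 19029499 to 19298372, with 78.1 and 72.9 RPKM, also with 11 exons, and 2190 bp of exon. The third, with 11 exons again, was on chromosome 2 at 78991730 to 79397640 and had 31.3 and 32.8 RPKM, so the second exceeded it 2.35-fold. A gene of 34 exons on chromosome 8 at 24255199 to 24618325 had 24.2 and 23.4 RPKM. A gene of 24 exons on chromosome 5 at 38093269 to 38372685 had 23.2 and 21.7 RPKM. Each of these 5 genes kept its place in both libraries, and the 10 highest members held 17.2% (A) and 16.8% (B) of all member reads.

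The lowest member was Apl_2G0008140, on chromosome 2 (plus strand) from 100240224 to 100538552, with 10 exons and 2067 bp of exon. Its 7 reads in library A gave 0.170 RPKM (exact Poisson interval, from counts halved to read pairs, 0.0528 to 0.496). Its 41 reads in library B gave 0.473 RPKM (0.282 to 0.713). Next was Apl_7G0004110, a gene of 16 exons on chromosome 7 at 31617383 to 32000429, with 0.766 RPKM in library A (0.442 to 1.18) and 0.70 RPKM in library B (0.497 to 0.983). A gene of 13 exons on chromosome 4 at 27877938 to 28335535 had 0.752 and 0.899 RPKM. A gene of 69 exons and 12.6 kb of exon on chromosome 2 at 16418842 to 17063161 had 0.831 and 0.949 RPKM. The 4-exon Apl_1G0018020 had 0.764 and 1.06 RPKM. In each library the interval of each of these 5 members overlapped that of the next, and the order of such adjacent members was not settled here. The lowest member's interval lay below those of the 69-exon gene and of Apl_1G0018020 in both libraries.

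Among the 6 widest members the level varied without order. In libraries A and B, the widest had 2.50 and 2.41 RPKM, the gene of rank 2 8.66 and 7.94 RPKM, and that of rank 3 8.21 and 8.80 RPKM. Rank 4 had 2.47 and 2.57 RPKM, rank 5 had 6.73 and 7.28 RPKM, and rank 6 had 4.93 and 4.79 RPKM. Across the 200 members, Spearman's rho between level and span was -0.047, and across all 8941 genes it was -0.14. Both are descriptions over genes that share the same 2 libraries.

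Levels of members were then compared with those of peers, since level per kilobase went with exon length over all 8941 genes (Spearman's rho -0.24). The peers of a member were all non-members of the same autosomes with exon length within 10% of its own and exon number within 10% of its own, or within 1 exon. At least 5 peers were found for 188 members, with a median of 61. The other 12 members have very long or very many exons, among them the 78-exon gene and the 146-exon gene, and were not compared. Compared members had a median of 4.58 RPKM, and the median over members of their peers' median was 7.76 RPKM. The median member stood at 0.526 of its peers (quartiles 0.305 to 1.01).

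Of the 188 members, 141 (75%) were below the median of their peers. The other genes, treated alike, were below theirs in 50.2% of 8641 cases, a share close to 50% by construction. Under 50% of the peer median were 87 members (46.3%) and 29.4% of the other genes, and over 2 times the peer median were 14 members (7.45%) and 26.3% of the other genes. The direction was the same in both libraries for most members: 136 were below their peers in both, 48 above in both, and 4 below in 1 library only. The median peer level was 7.80 RPKM in library A and 7.75 RPKM in library B.

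The shortfall against peers was not limited to the 200 members, and it faded with decreasing span. The next 200 genes by span, with spans from 172 to 255 kb, stood at 0.603 of their peers, and the 400 after them, from 111 to 172 kb, at 0.863. The next 800, from 63.0 to 110 kb, stood at 0.963, and the next 1600 at 1.07. Within the members no such gradient was seen, with 0.486, 0.654, 0.466 and 0.540 for successive sets of 50 members from the widest down. Spearman's rho between span and level relative to peers was -0.049 over 188 members.

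**Figure D3:**
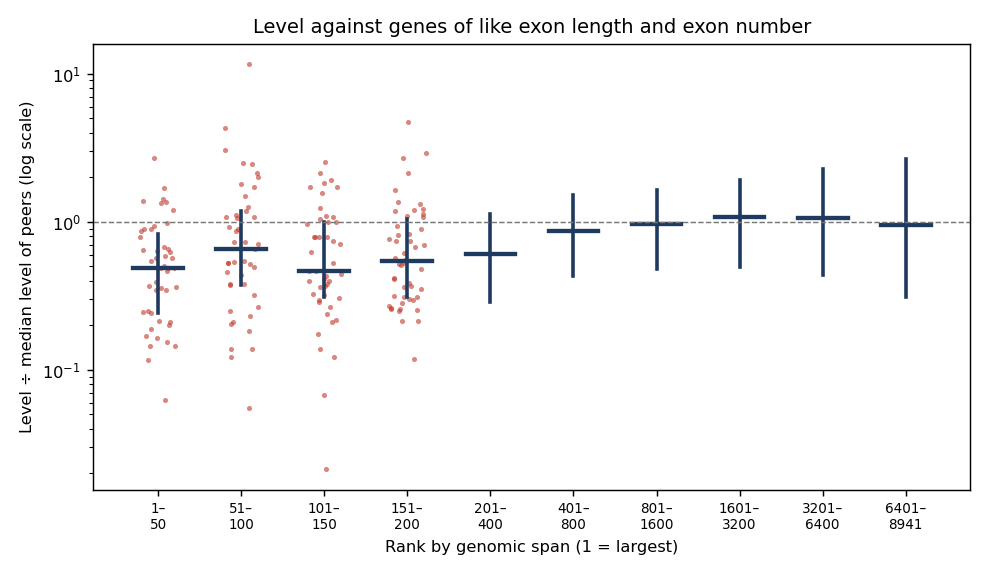
Level divided by the median level of peers (log scale) by class of span rank, with rank 1 the largest span. Horizontal bars are medians and vertical bars quartiles, red points are single members, and the dashed line marks equality with peers. Medians lie at 0.466 to 0.654 in the 4 member classes and at 0.952 to 1.07 in the 4 classes beyond rank 800.

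Members departed from their peers in both directions. Apl_1G0003680 had 11.6 times the level of its 171 peers, whose median was 8.02 RPKM. Apl_6G0002560 had 4.69 times that of its 131 peers, and a gene of 76 exons on chromosome 3 at 52888821 to 53252864 had 4.30 times that of 5 peers, with 10.1 (A) and 9.51 (B) RPKM. The last ratio rests on few peers, because genes with so many exons are rare. The lowest were Apl_2G0008140 at 0.0213 of 166 peers, Apl_7G0004110 at 0.0555 of 77 peers and the 13-exon gene on chromosome 4 at 0.0627 of 146 peers.

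Structure within the members went with level to a small degree. The 33 members with 2 to 10 exons had a median of 3.0 RPKM, the 78 with 11 to 20 exons 4.83 RPKM, the 71 with 21 to 40 exons 4.64 RPKM and the 18 with over 40 exons 5.72 RPKM. Against peers these classes stood at 0.411, 0.483, 0.603 and 0.816, the last over 12 members. The 26 members in which 1 intron takes over 50% of the span had a median of 2.72 RPKM and stood at 0.314 of their peers. The other 174 had 4.85 RPKM and 0.567. Members with the longest intron in first place had 4.81 RPKM, and the others 4.29 RPKM. Spearman's rho of level with the median intron was -0.21 and with exon number 0.18 over 200 members, both weak.

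Members were placed mostly on the large chromosomes. The 8 autosomes over 30 Mb carried 158 members (79%) with 63.1% of the genes, and the 15 of 10 to 30 Mb carried 42 with 36.9% of the genes. Of the genes that are a peer of any member, 63.6% were on the large class. Per gene, members made up 2.80% on the large and 1.27% on the smaller autosomes. Per 10 Mb of chromosome, taken to the end of its last gene, the classes were closer, at 2.08 and 1.56 members, since the smaller autosomes hold more genes per Mb.

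Single chromosomes differed from this pattern. Chromosomes 1, 2 and 3 carried 45, 42 and 24 members. Chromosome 13, of 24.4 Mb, carried 9 members among 225 genes (4.0%), a share like the 4.02% of chromosome 2, and members covered 14.1% of its length, the most of any autosome. Chromosome 8, of 38.0 Mb, carried 4 members among 358 genes (1.12%), and chromosome 11, of 24.3 Mb, carried 1 among 285. Chromosomes 19 and 33 carried none. The 2 members of chromosome 20, of 11.8 Mb, covered 9.50% of it, 1 of them being the 761 kb gene of rank 5.

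**Figure D4:**
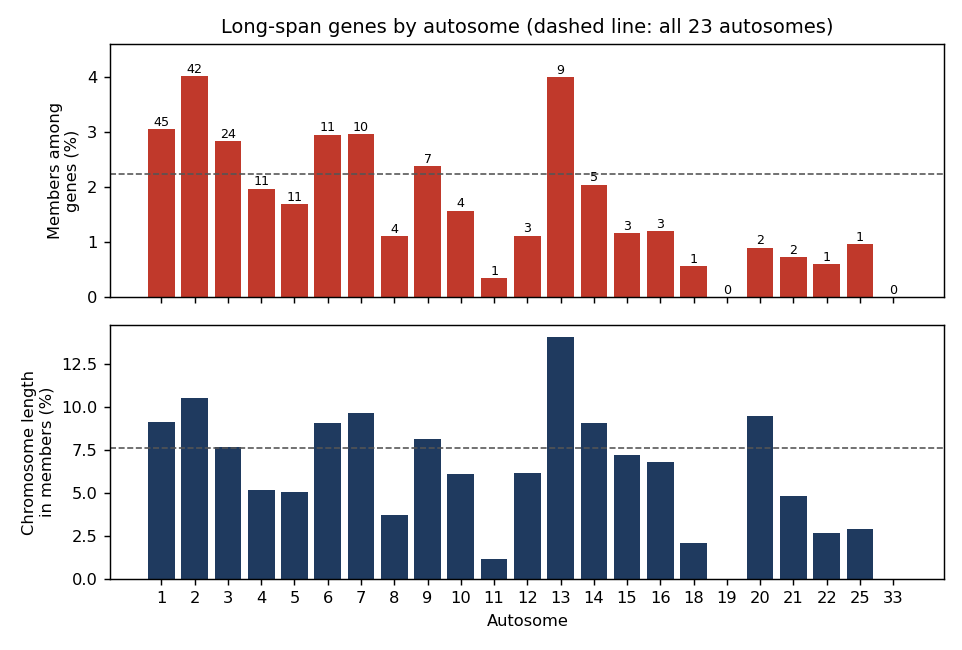
Members as a percentage of the genes of each autosome (upper panel, with the number of members above each bar) and percentage of chromosome length covered by members (lower panel). Dashed lines give the values over all 23 autosomes, 2.24% of genes and 7.61% of length. Chromosomes 2 and 13 have the highest shares of genes and chromosomes 19 and 33 have no member.

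The level of members did not follow chromosome size. It was 4.58 RPKM on the large class and 4.26 RPKM on the smaller one, where the other genes had 9.24 and 10.7 RPKM. Against peers members stood at 0.528 and 0.525, and 111 of 149 and 30 of 39 were below their peers. Chromosome 8 was an exception, with 4 members at a median of 13.7 RPKM and 1 of 4 below its peers. A median over 4 genes is not firm.

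Members also lay in sparse surroundings, which the choice by span did not use. Distances were taken only to neighbours with the next ID number, because a missing number may stand for a gene that was not analysed here. For the 107 members with such a neighbour on both sides, the nearer one was at a median of 29.6 kb (quartiles 7.75 to 63.9 kb). For 5132 other genes it was at 3.24 kb, and the median over compared members of their peers' median was 3.63 kb. The gap was wide on both sides of a member, with medians of 74.5 kb upstream of the 5′ end over 144 members and 49.7 kb downstream over 147. The other genes had 9.28 and 6.26 kb. Gaps under 1 kb made up 4.81% of the members' 291 gaps and 16.5% of those of the other genes, and gaps over 100 kb made up 37.5% and 8.91%.

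Level was lower in the members with the widest surroundings. The 35 members with the largest summed gap, from 319 to 1922 kb, had a median of 3.57 RPKM and stood at 0.493 of their peers, with 28 of 32 below them. The 35 with the smallest, from 15.2 to 93.9 kb, had 5.0 RPKM and stood at 0.653, with 21 of 31 below. The 37 between them had 5.13 RPKM and stood at 0.638. Spearman's rho of level with the gap to the nearer neighbour was -0.25 over 107 members and -0.14 over 5239 genes. Wide members and wide gaps share the chromosomes on which both are found, and the part of that in this relation was not tested.

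Neighbours of members were themselves wider than usual, with a level a little below that of other genes' neighbours. Over the 291 neighbours with the next ID number, the median span was 39.1 kb, against 19.5 kb for neighbours of the other genes. Their median level was 8.77 RPKM against 9.70 RPKM. Of them, 66.7% were higher than the member they flank, against 49.6% for neighbours of the other genes. The members' own low level enters that share, so it does not describe the neighbours alone. Strand was laid out much as elsewhere, with 50.2% of neighbours on the member's strand, 23.7% divergent and 26.1% convergent, where other genes had 51.9%, 24.1% and 23.9%. The level of a member gave little hint of that of its neighbour, with a Spearman's rho of 0.022 over the 291 pairs. For the other genes rho was 0.086 over 13387 pairs, so a weak relation was not particular to members. Of the 107 members with both neighbours known, 12 (11.2%) had another member beside them, against 4.05% of the other genes.

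Members beside each other came in 12 pairs and in no longer row. In 8 of the pairs the IDs were consecutive. The highest member of all, Apl_1G0003680, was in such a pair on chromosome 1. The gene before it, at 40820823 to 41093101 on the same strand, has 37 exons and 9.67 kb of exon and had 1.71 (A) and 2.02 (B) RPKM. A pair on chromosome 2 at 139752898 to 140310333, of 0.557 Mb, was 94.6% covered by its 2 members, with levels of 3.80 and 7.10 RPKM. Another on chromosome 2, at 85658971 to 87242006, had 850 kb between its members and gaps of 949 and 929 kb outside them. The first had 1.62 (A) and 1.5 (B) RPKM and the other 1.94 (A) and 1.77 (B) RPKM.

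The 2 libraries gave nearly the same values for the members. The log2 ratio of B over A had a median of -0.018, with a scaled median absolute deviation of 0.12. The other genes of the same autosomes had -0.0066 and 0.10, and all 11256 genes tested had -0.0013 and 0.11. Labels and series text differ on which organs each library holds, so these ratios do not compare organs. The ratio was below 0 in 110 members and above 0 in 90. On the autosomes over 30 Mb its median was -0.027 over 158 members and -0.011 over 5452 other genes. On those of 10 to 30 Mb it was 0.020 over 42 members and 0.0030 over 3220 other genes.

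Few members differed between the libraries by a set fold, and few genes of the same autosomes did. At least 1.5-fold higher in library B was 1 member (0.5%), and 0 were higher in library A. Of all 11256 genes tested, 1.63% and 0.808% were so. Of the 8872 tested on the same autosomes, members included, 1.26% and 0.609% were so. At least 25% higher in library B were 3 members (1.5%), and 2 (1%) were so in library A. The shares were 4.75% and 2.78% of all genes tested, and 3.82% and 2.54% on the same autosomes. Members less often had few reads, with 3.5% under 100 reads in library A against 10.9% of the other genes. The scaled median absolute deviation of the ratio was not smaller in members, at 0.12 against 0.10. Such small counts do not show that members differ less often than other genes. With 1 library per label these ratios have no replicate check.

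The member past 1.5-fold was the lowest member, Apl_2G0008140, at 2.51-fold with the prior count of 2 used for the rule. Without a prior count it was at 2.79-fold (exact conditional binomial interval 1.24 to 7.37 from reads). From read pairs the interval was 0.798 to 9.58 and included 1. Among members with 100 or more reads in the library where they were higher, the largest ratio toward library B was that of Apl_1G0018020, the 4-exon gene, with 102 and 298 reads, 1.39-fold higher (1.01 to 1.95 from pairs). Next was Apl_4G0001140, on chromosome 4 at 12550080 to 13254247, with 1.42 RPKM in library A and 1.80 in library B, 1.26-fold higher (0.988 to 1.63). The third, on chromosome 1 at 86958155 to 87409888, was 1.23-fold higher (1.01 to 1.52).

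Toward library A the largest ratio was that of Apl_2G0004800, on chromosome 2 at 52691332 to 53097788, with 13 exons. Its 243 and 369 reads gave 2.96 RPKM (A) and 2.14 RPKM (B), a 1.38-fold excess in A (1.10 to 1.76 from pairs). Apl_1G0017660, on chromosome 1 at 155193184 to 155930836, was 1.26-fold higher there (0.914 to 1.72). The 2-exon gene on chromosome 1 followed with 2.43 and 2.05 RPKM, 1.19-fold higher (0.969 to 1.44). Of these 6 members, 3 had a pair-based interval that left out 1, before any allowance for having picked the largest of 200.

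**Figure D5:**
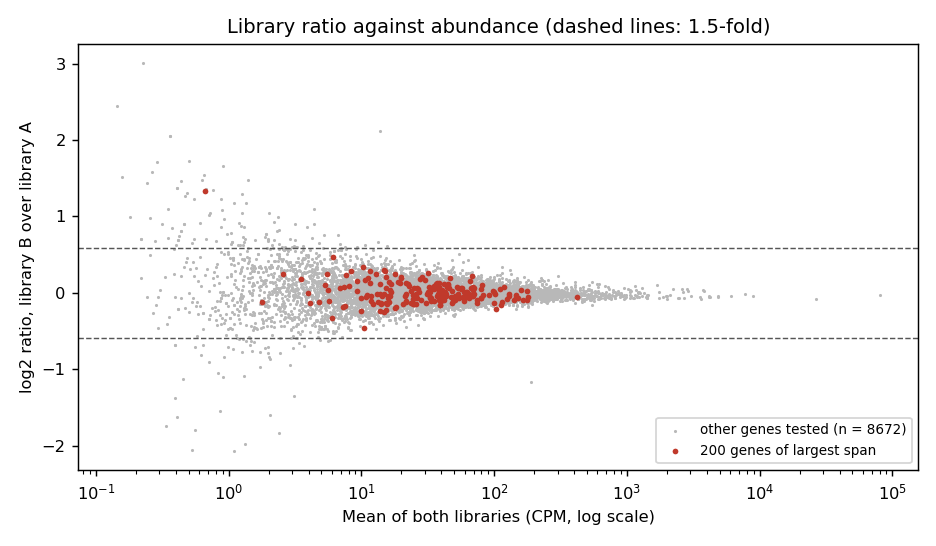
Log2 ratio of B over A against mean abundance in CPM on a log scale, for the 200 members (red) and the other tested genes of the same autosomes (grey), with dashed lines at 1.5-fold. One member, with 7 and 41 reads, lies beyond the lines, and no other member does.

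Shared exon structure was counted last. Only 1 member shared the lengths of all its inner exons with another gene in the table, against 281 of the other genes (3.21%). Genes with a single inner exon or none could not count as sharing, but stayed in the totals. A full match is harder to reach with more exons, and members had a median of 18.5 against 9. The shares were not compared at like exon number, so they do not show that members are copied less often. The 1 member has 5 exons, lies on chromosome 1 at 150638090 to 151049323 and had 3.28 (A) and 3.29 (B) RPKM. Sequence was not compared, so its count may be uncertain.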

How the data were processed

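The authors deposited raw counts, made per gene over its exons with featureCounts 2.1.1, per the file headers. The recorded command sets paired-end mode and no option for strand, read pairs or multi-mapping reads, so mates count separately, reads from overlapping genes on opposite strands cannot be told apart, and intervals from reads are too narrow. HISAT2 and SAMtools are named in the submitters' processing notes. The sources used here give neither the build's name nor the settings of the aligner. The headers name the alignments otherwise than the labels name the libraries, so counts were assigned by the deposit's pairing of files with samples. Only reads over exons were counted.

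Counts, 20047449 and 41792653 in all, were scaled with TMM factors (0.996 and 1.004) of edgeR 4.0.16 in R 4.3.3, from genes with at least 10 reads in 1 library. RPKM was computed from these counts and the deposited exon length. Log2 ratios and the fold rules used a prior count of 2. Folds printed for single members used none unless stated. Poisson, Clopper-Pearson and conditional binomial intervals are exact, at 95%. With 1 library per label no model was fitted and no test made. The calculations were tested on simulated data.

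Named members were the 6 widest, the 5 highest and 5 lowest by level, the 3 widest ratios in each direction with at least 100 reads, the 3 longest introns and the 3 highest and lowest against peers. Others, such as those chosen by exon number, pairing or shared structure, were chosen after their values were seen. The members and comparisons were chosen with earlier results of these data known.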

Additional observations from a re-analysis of the deposited data

How the results depend on the processing

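Of 69 alternatives to the summary values, 64 left the value within a set tolerance, 5 moved it and 0 reversed it. Some of the 64 could hardly move a value, so that count overstates how far the results were tried. Other library scalings had factors from 0.996 to 1.004. All 200 members had at least 10 reads in 1 library, so a filter at 10 reads or none kept the same genes. The tolerance was an exact binomial interval (for the median, from order statistics), 1.5 times a count or 0.1 of a correlation. For medians and shares of members that interval ran over genes. These share the same 2 libraries and are not replicates, so it served as a wide tolerance and not as a measure of error. With peers drawn only from genes of span below the median, the median member stood at 0.450 of its peers, over 95 members, and over the alternatives it ranged from 0.450 to 0.567. The share of members below their peers ran from 71.5% to 78.5%. By a rule of 25% higher 5 members were apart between the libraries, and 0 were at 1.5-fold with at least 50 reads, because the only such member has fewer. Without the 10 most abundant genes of the table, the members' share of reads was 1.07% (A) and 1.06% (B), as the smaller total gives by construction. All 144 alternatives for the 24 named genes left level and ratio within counting error. They changed the library scaling only, with factors from 0.996 to 1.004, so this could hardly come out otherwise. No paired analysis was possible because there is a single library in each group. Depth limits the lowest members, where 1 library holds as few as 7 reads.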
